A study of Homo sapiens with 4 samples.

Results

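The genes described are 32 immediate-early, AP-1 and MAP kinase feedback genes, taken by name from a fixed list of 32 symbols. All 32 had a row among the 37810 gene names of the deposited expression table, and 31 of them were above background on at least 1 array. The 4 groups were MDA-MB-231 cells with FOXF2 siRNA, MDA-MB-231 cells with control siRNA, MCF10A cells with FOXF2 siRNA and MCF10A cells with control siRNA. Each group held 1 array. MDA-MB-231 is a line grown from a metastatic breast cancer, and MCF10A is an immortalized line of breast epithelial cells that does not form tumours. Every group received a small interfering RNA (siRNA, a short duplex that directs a matching messenger RNA to be cut) at 20 nM with a lipid reagent, and total RNA was taken at 48 h. The control groups were therefore transfected as well, and none was left untreated. The study set out to find genes regulated by FOXF2, a forkhead transcription factor, in normal and metastatic breast epithelial cells.

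Immediate-early genes are switched on within minutes of a growth factor or stress signal, from factors already present in the cell and without new protein synthesis. The signal runs largely through the MAP kinases: ERK phosphorylates ternary complex factors that sit beside serum response factor on the CArG box of promoters such as that of EGR1, while JNK phosphorylates JUN. FOS and JUN proteins pair through leucine zippers to form AP-1, which binds the palindromic TGAGTCA element. The response is shut off by phosphatases of the DUSP family, by Sprouty and Spred proteins, which dampen signalling from receptors to ERK, and by ZFP36 proteins, which destabilize AU-rich messenger RNAs. In breast epithelial tumour lines, AP-1 is best known for driving genes of invasion and proliferation.

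Levels are given as the deposited linear intensity of each array. The limit above background was 121.2 to 121.7 with FOXF2 siRNA and 121.0 to 121.5 with control siRNA, and a value under it says only that the gene was not detected above background. Of the 32 genes, 27 and 29 were above it on the MDA-MB-231 arrays with FOXF2 siRNA and with control siRNA, and 29 on each MCF10A array. Differences are log2 differences after background correction, which enlarges those of dim genes. Intensities of different genes come from different probes and were not compared with each other. FOXF2 itself measured 122.6 with its own siRNA against 259.1 with control siRNA in MDA-MB-231, and 143.3 against 241.4 in MCF10A, and it fell by 1.85 on the log2 scale in limma over both lines (adjusted p = 3.26e-05). Of the 4 basal markers all were lower in MDA-MB-231, and the basal keratins KRT5, KRT14 and KRT17 and the cadherin CDH1 were above background on both MCF10A arrays and on neither MDA-MB-231 array, while the mesenchymal filament VIM was higher on both MDA-MB-231 arrays. Other markers ran against this division: the epithelial keratin KRT19 measured 980.9 and 634.3 in MDA-MB-231 against 116.9 and 79.1 in MCF10A, and the mesenchymal cadherin CDH2 measured 108.8 and 115.0 against 1289.1 and 980.9. Endothelial markers summed to 401.7 and 384.5 in MDA-MB-231 against 337.9 and 372.5 in MCF10A over 3 genes, and blood cell markers to 332.3 and 336.7 against 897.6 and 744.7 over 3 genes, with at most 1 gene of each list above background on any array.

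The first comparison set MDA-MB-231 against MCF10A, with 2 arrays per line. Of the 31 genes tested, 8 were higher and 10 lower in MDA-MB-231, with an adjusted p under 0.05 in limma and a log2 difference of at least 1. Over all 20747 genes tested, 5.75% were higher and 5.95% lower by this rule, so that 58.1% of the listed genes and 11.7% of all genes were called. FOSL1, JUN, PHLDA1, SPRY4 and DUSP5 were among those higher in MDA-MB-231. MYC, FOS, ZFP36 and DUSP1 were among those lower. The 2 arrays of a line differ in their siRNA and the labels name no replicate cultures, and the spread in limma came wholly from genes of similar brightness. The p-values therefore do not measure how far cultures of a line vary.

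The FOS family divided between the lines. FOS, the founding AP-1 subunit and a classical serum-response gene, measured 128.6 and 149.9 in MDA-MB-231 (FOXF2 siRNA and control siRNA) against 344.9 and 457.0 in MCF10A. It was 5.97-fold lower in MDA-MB-231 (log2 difference -2.58, SE 0.29, adjusted p = 1.68e-17). FOSL1, which encodes Fra-1, a FOS family member without the transactivation domain of FOS, went the other way, with 1878.8 and 2315.8 in MDA-MB-231 against 374.1 and 427.7 in MCF10A. All FOSL1 values of MDA-MB-231 lay above all of MCF10A, a 6.38-fold difference (log2 2.67, SE 0.21, adjusted p = 6.41e-37). Such a lack of overlap was common: of all 37810 genes, 8564 lay wholly higher in MDA-MB-231 and 8076 wholly lower, those at background included. FOSL2, encoding Fra-2, measured 177.4 and 194.1 in MDA-MB-231 against 145.1 and 114.1 in MCF10A, and the last value was under the background limit. Its log2 difference of 1.27 (adjusted p = 0.00398) rests in part on that array: the log2 difference was 1.90 between the control siRNA arrays and 0.64 between the FOXF2 siRNA arrays. FOSB stayed dim in both lines, at 134.7 and 132.5 in MDA-MB-231 against 143.8 and 162.4 in MCF10A, and was not called (adjusted p = 0.528).

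The JUN family supplies the constant partners of AP-1, since JUN proteins can pair with each other and FOS proteins cannot. JUN measured 1250.2 and 1934.3 in MDA-MB-231 against 416.7 and 473.0 in MCF10A, a log2 difference of 2.04 (SE 0.21, adjusted p = 3.58e-21). JUNB, often the weaker activator of the family, measured 217.4 and 213.4 against 308.8 and 278.4, a log2 difference of -0.68 that was not called (adjusted p = 0.0591). JUND, the family member that changes least with serum, measured 3290.1 and 2964.9 in MDA-MB-231 against 5715.2 and 5458.4 in MCF10A. The JUND arrays of the lines did not overlap, and its log2 difference of -0.86 (adjusted p = 3.73e-05) was under the size required for a call. FOSL1 and JUN were thus the members of these families with the largest increases in MDA-MB-231, and FOS the one with the largest decrease. Of the other bZIP genes, MAFF, a small MAF protein without a transactivation domain, measured 225.7 and 244.3 in MDA-MB-231 against 278.0 and 316.5 in MCF10A and was not called. ATF3, a stress-induced repressor, was above background only on the MCF10A control array, at 127.4.

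**Figure D1:**
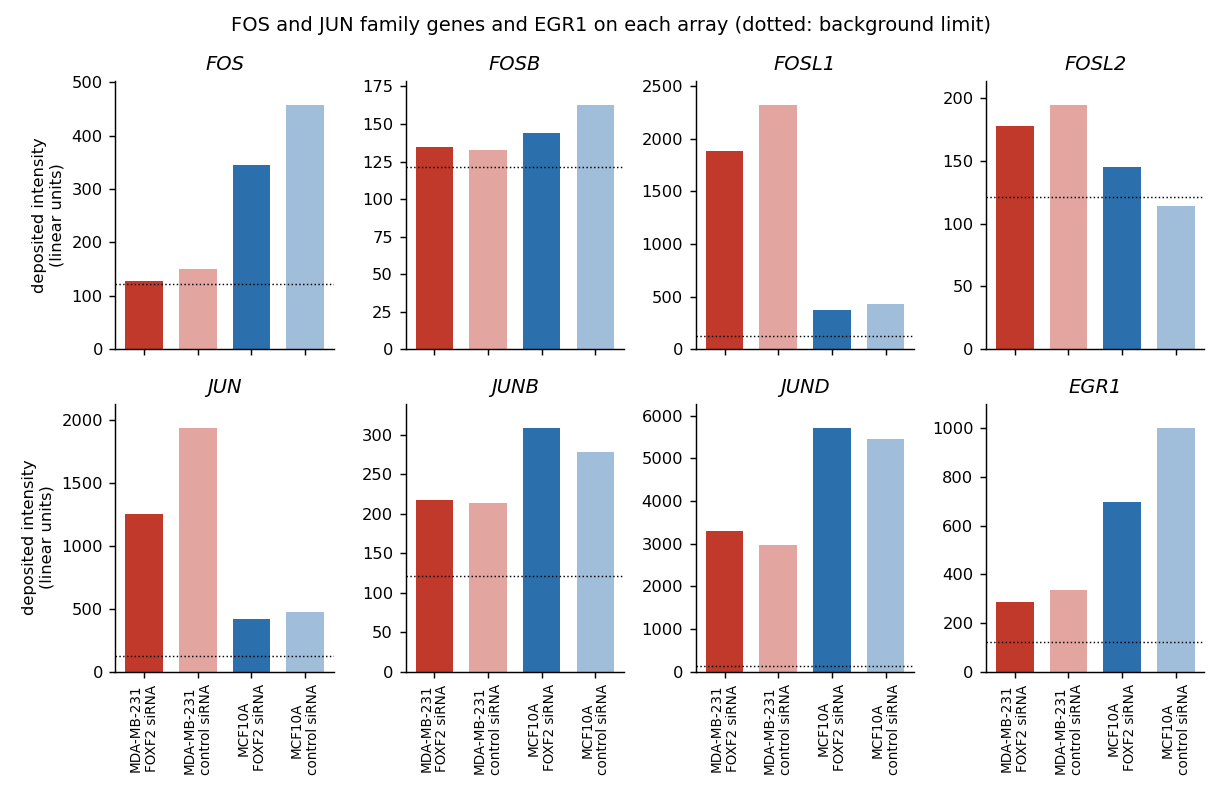
Deposited linear intensity of the 4 FOS genes, the 3 JUN genes and EGR1 on each array, with MDA-MB-231 in red and MCF10A in blue, FOXF2 siRNA in the darker shade, and the background limit dotted. FOSL1 and JUN are higher on both MDA-MB-231 arrays and FOS and EGR1 on both MCF10A arrays; each panel has its own axis, and panels cannot be compared in height.

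EGR1 encodes a zinc-finger factor induced by serum, growth factors and stress. Its values were 286.5 and 336.1 in MDA-MB-231 against 697.2 and 1001.6 in MCF10A, and it was 3.34-fold lower in MDA-MB-231 (log2 -1.74, SE 0.22, adjusted p = 2.57e-13). Its relatives were dim. EGR3 measured 137.8 and 184.7 in MDA-MB-231 against 132.3 and 153.5 in MCF10A, overlapping between the lines. EGR2 passed the background limit only on the MDA-MB-231 control array, at 149.9. The nuclear receptor NR4A1 was above background on no array (104.0 to 115.9), so no difference can be given for it, and NR4A2 measured 111.1 and 123.1 in MDA-MB-231 against 135.7 and 137.2 in MCF10A and was not called.

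MYC, the growth-promoting transcription factor and an early target of ERK signalling, showed the largest decrease of all the listed genes. It measured 610.1 and 743.6 in MDA-MB-231 against 4792.5 and 4331.8 in MCF10A, 7.62-fold lower in MDA-MB-231 (log2 -2.93, SE 0.19, adjusted p = 2.69e-50). ETS2, an ETS factor that ERK phosphorylates, measured 215.2 and 186.5 against 515.7 and 432.2 (log2 -1.76, adjusted p = 1.21e-10). Its close relative ETS1 lay in the opposite direction, at 999.1 and 1388.5 in MDA-MB-231 against 666.7 and 888.8 in MCF10A, with a log2 difference of 0.68 that was under the size required (adjusted p = 0.00608). PHLDA1, a pleckstrin-homology-like protein induced by growth factors, measured 5997.2 and 6735.0 in MDA-MB-231 against 936.1 and 1274.0 in MCF10A (log2 2.64, SE 0.19, adjusted p = 3.61e-43). Of the IER genes, IER5 was lower in MDA-MB-231, at 529.8 and 381.3 against 900.8 and 1050.4 (log2 -1.29, adjusted p = 2.76e-08). IER2 and IER3 were not called, and the IER3 arrays of the lines overlapped.

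The feedback genes did not move as a block. DUSP4, DUSP5 and DUSP6, nuclear and cytoplasmic phosphatases that act on ERK, were all higher in MDA-MB-231. DUSP4 measured 276.7 and 327.7 in MDA-MB-231 against 138.3 and 138.5 in MCF10A (log2 2.05, adjusted p = 3.73e-10), where the MCF10A values were close to background. Without background correction this log2 difference was 1.12. DUSP5 measured 1291.6 and 1596.9 against 444.1 and 555.9 (log2 1.72, adjusted p = 2.65e-15). DUSP6 measured 787.8 and 803.2 against 363.8 and 450.9 (log2 1.16, adjusted p = 1.88e-06), with no overlap between the lines. In contrast, DUSP1, a stress-inducible phosphatase that prefers p38 and JNK, measured 1345.6 and 992.0 in MDA-MB-231 against 5143.8 and 4834.9 in MCF10A (log2 -2.20, adjusted p = 9.67e-30). DUSP2 was above background in MCF10A alone, at 143.2 and 154.8, against 103.5 and 92.6 in MDA-MB-231. It was called on the background-corrected scale (adjusted p = 0.014), and without correction its log2 difference of -0.61 was under the size required.

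Sprouty proteins are induced by the pathway that they restrain. SPRY4 measured 1015.7 and 929.4 in MDA-MB-231 against 246.4 and 263.4 in MCF10A, 5.27-fold higher in MDA-MB-231 (log2 2.40, SE 0.23, adjusted p = 2.16e-24). SPRY2 measured 1103.9 and 1173.5 against 805.2 and 700.6, a log2 difference of 0.66 under the size required (adjusted p = 0.00774), and SPRED1 was not called. All 3 ZFP36 genes were lower in MDA-MB-231. ZFP36, which encodes tristetraprolin, measured 365.9 and 335.6 in MDA-MB-231 against 1517.6 and 1141.8 in MCF10A (log2 -2.22, SE 0.21, adjusted p = 1.51e-23). ZFP36L2 measured 203.1 and 222.4 against 523.1 and 519.5 (log2 -1.79, adjusted p = 1.89e-11), and ZFP36L1 measured 797.7 and 950.8 against 1648.9 and 1847.4 (log2 -1.08, adjusted p = 6.91e-07).

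**Figure D2:**
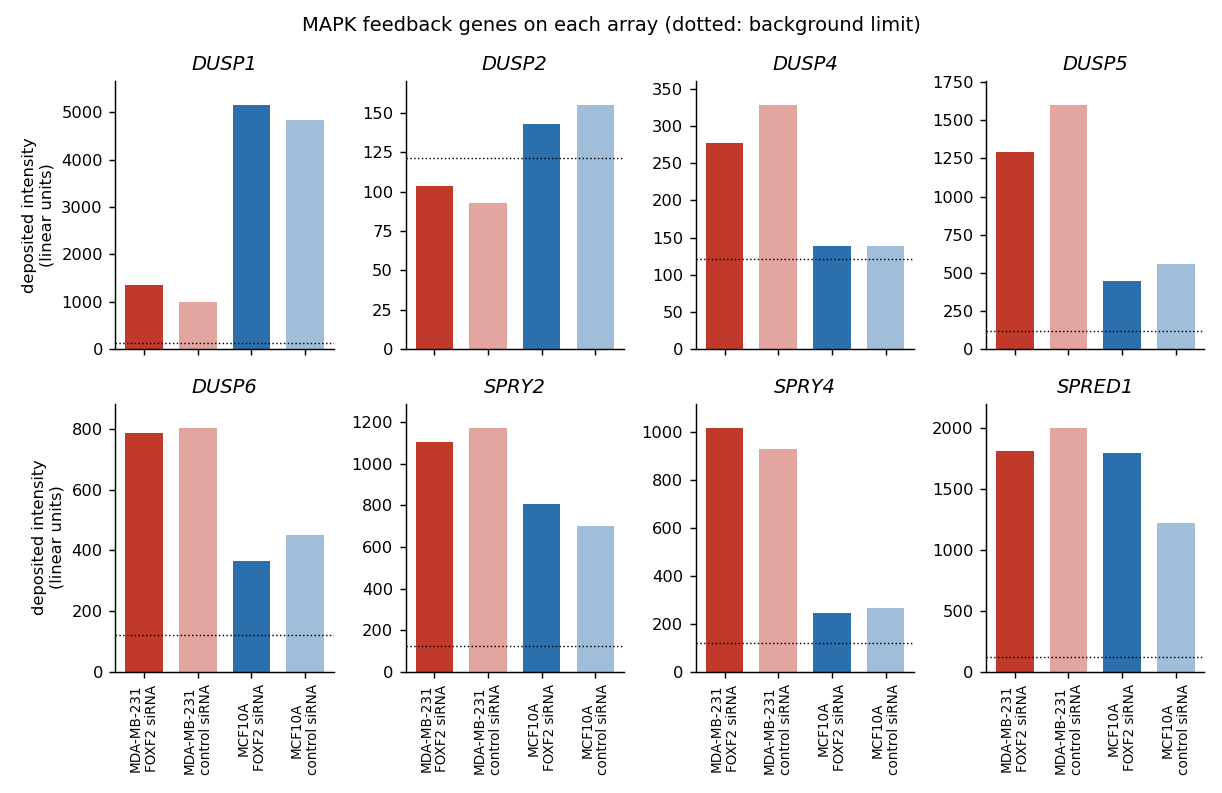
Deposited linear intensity of 5 DUSP genes, 2 Sprouty genes and SPRED1 on each array, coloured as for the FOS and JUN genes, with the background limit dotted. DUSP4, DUSP5, DUSP6 and SPRY4 are higher on both MDA-MB-231 arrays, and DUSP1 is higher on both MCF10A arrays; panels cannot be compared in height.

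Without background correction 6 genes were higher and 9 lower in MDA-MB-231, with FOSL2, DUSP2 and DUSP6 (log2 0.97) no longer called, and 3 calls were lost without an intensity trend. Of the 18 genes called between the lines, 12 were also called with each array left out in turn. The other 6 lost the call in at least 1 such fit: FOSL2, DUSP2, DUSP4, DUSP6, IER5 and ZFP36L1. The fits with an array left out had cell line as the only term, without the siRNA, and 1 array for 1 of the lines. With each gene's own spread in place of that of similarly bright genes, on 1 residual degree of freedom, none of the 18 was called (adjusted p of 0.436 to 0.669), nor was any other gene of the table. The interferon-induced genes, which can respond to transfected RNA, moved with the lines as well: their summed intensity over 8 genes was 3364 and 3007 in MDA-MB-231 against 1294 and 1085 in MCF10A. The part of the interferon-induced genes in the differences between lines was not tested.

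**Figure D3:**
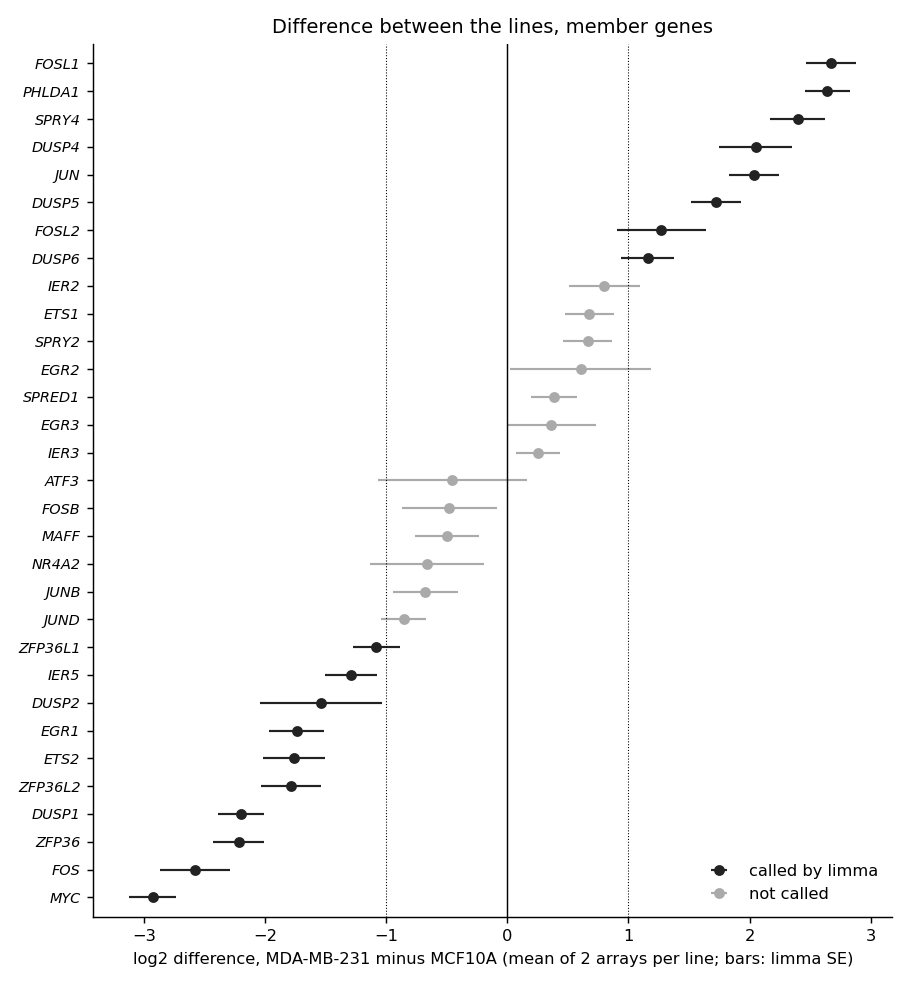
Log2 difference of MDA-MB-231 minus MCF10A after background correction for the 31 listed genes that could be tested, with limma standard errors as bars and dotted lines at a log2 difference of 1 in either direction. The 18 called genes (black) run from MYC at -2.93 to FOSL1 at 2.67, and the uncalled genes (grey) lie between.

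The second comparison set FOXF2 siRNA against control siRNA within each line. With 1 array per group these differences have no replicate check and were described by size, at 1.5-fold and 2-fold. Of the listed genes above background on at least 1 array of a line, none was counted at 2-fold or more. Over all genes, 2.58% were so counted in MDA-MB-231 and 2.84% in MCF10A. A gene at background on 1 of the arrays, such as EGR2 in MDA-MB-231 or FOSL2 in MCF10A, was counted at a bound. The bound is a minimum size, so such a gene may differ by 1.5-fold or 2-fold without being counted. In MDA-MB-231, 5 of 29 genes were at least 1.5-fold lower with FOXF2 siRNA, against 7.46% of all genes, and 1 was at least 1.5-fold higher, against 7.3%. In MCF10A none of 30 genes was 1.5-fold lower, against 6.82% of all genes, and 3 were at least 1.5-fold higher, against 8.04%. The 5 decreases in MDA-MB-231 numbered 2 without background correction, JUN and IER3, and 3 with a larger offset of 50.

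The 5 genes lower in MDA-MB-231 were EGR3, EGR2, IER3, JUN and FOS, and JUN and IER3 were far above background. JUN measured 1250.2 with FOXF2 siRNA against 1934.3 with control siRNA in MDA-MB-231, a log2 difference of -0.67, and 416.7 against 473.0 in MCF10A, a log2 difference of -0.23. IER3, encoding an ERK-induced survival protein, measured 2972.2 with FOXF2 siRNA against 4952.1 with control siRNA in MDA-MB-231 (-0.75), and 2921.3 against 3570.3 in MCF10A (-0.30). Both genes were thus lower with FOXF2 siRNA in each line. EGR3 measured 137.8 with FOXF2 siRNA against 184.7 with control siRNA in MDA-MB-231 (-0.94), and 132.3 against 153.5 in MCF10A (-0.55). FOS had log2 differences of -0.59 in MDA-MB-231 and -0.52 in MCF10A, and its MDA-MB-231 values of 128.6 with FOXF2 siRNA and 149.9 with control siRNA were near background. EGR2, at 98.4 with FOXF2 siRNA against 149.9 with control siRNA in MDA-MB-231, was at background on the FOXF2 siRNA array. It counted as lower by a bound, taken to the lowest value above background. Without background correction that bound was under 1.5-fold (log2 -0.31), while the deposited values themselves differed by -0.61 on the log2 scale. Just outside the threshold was EGR1 in MCF10A, at 697.2 with FOXF2 siRNA against 1001.6 with control siRNA (-0.58). In MDA-MB-231, EGR1 measured 286.5 against 336.1 (-0.32).

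The genes higher with FOXF2 siRNA were different in each line. IER2, an early-response nuclear protein gene, measured 204.6 with FOXF2 siRNA against 151.2 with control siRNA in MCF10A (log2 0.87), and 240.8 against 236.2 in MDA-MB-231 (0.04). SPRED1, an inhibitor of RAS to ERK signalling, measured 1801.5 with FOXF2 siRNA against 1222.6 with control siRNA in MCF10A (0.59), and 1817.0 against 2004.7 in MDA-MB-231 (-0.15). In MCF10A, FOSL2 was above background only with FOXF2 siRNA, at 145.1 against 114.1 with control siRNA. It counted as higher on the background-corrected scale, while the deposited intensities differed by a ratio of 1.27. In MDA-MB-231, IER5 measured 529.8 with FOXF2 siRNA against 381.3 with control siRNA (0.59), and in MCF10A 900.8 against 1050.4 (-0.24). Whether the lines differ in these responses could not be tested, since no array is left to measure the spread.

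**Figure D4:**
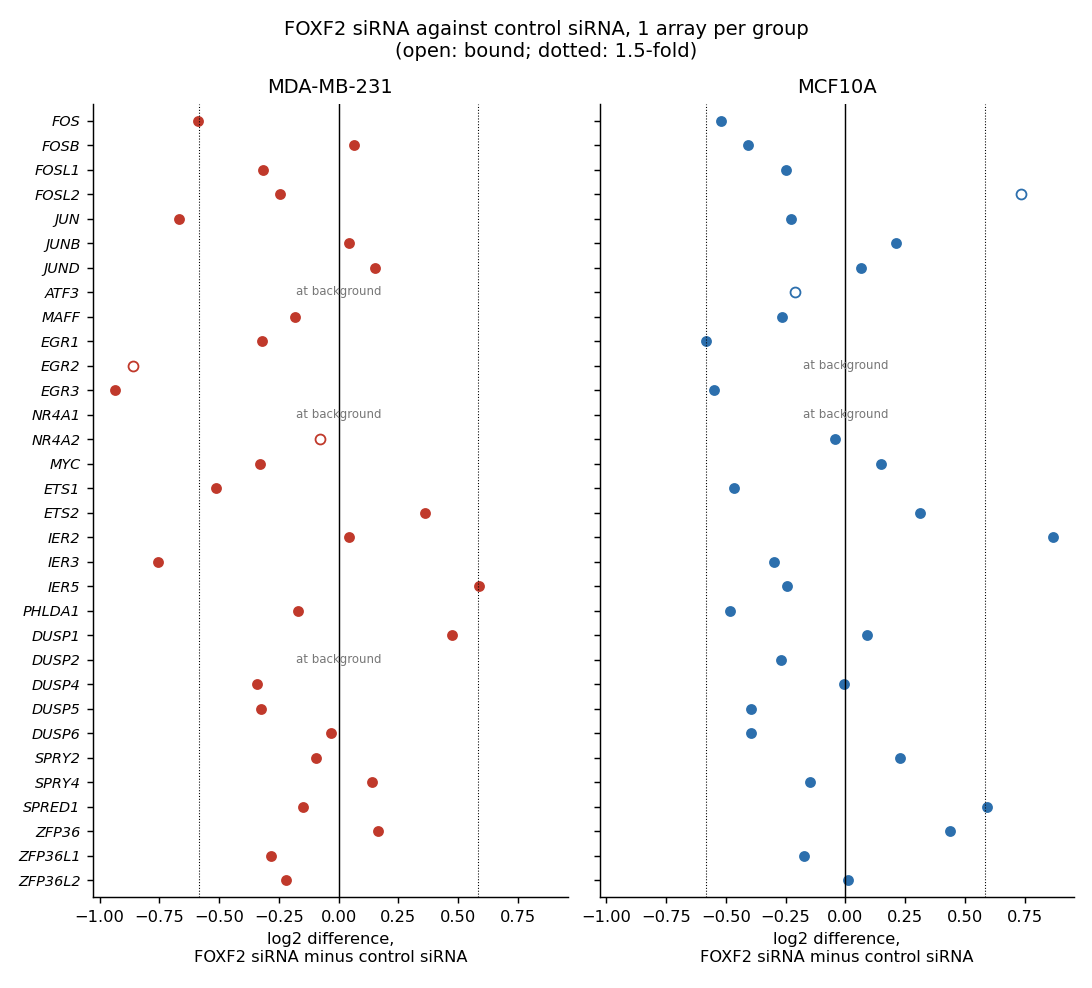
Log2 difference of FOXF2 siRNA minus control siRNA after background correction for each of the 32 genes that was above background in that line, MDA-MB-231 on the left and MCF10A on the right, 1 array per group. Filled points were measured above background on both arrays, open points are bounds and dotted lines mark 1.5-fold; EGR3 at -0.94 in MDA-MB-231 is the lowest point and IER2 at 0.87 in MCF10A the highest.

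The remaining genes with a value in a line stayed within 1.5-fold there. ATF3 in MCF10A and NR4A2 in MDA-MB-231 were counted at a bound. MYC measured 610.1 with FOXF2 siRNA against 743.6 with control siRNA in MDA-MB-231 (log2 -0.33), and 4792.5 against 4331.8 in MCF10A (0.15). ETS1 had differences of -0.51 in MDA-MB-231 and -0.47 in MCF10A, and ETS2 of 0.36 and 0.31 in the same order of lines. FOSL1 had differences of -0.32 in MDA-MB-231 and -0.25 in MCF10A, and PHLDA1 of -0.17 and -0.48. DUSP5 had differences of -0.33 in MDA-MB-231 and -0.39 in MCF10A, DUSP6 of -0.03 and -0.39, and DUSP1 of 0.48 and 0.09. JUNB and JUND had small positive differences in each line, of 0.04 to 0.21. The ZFP36 genes ranged from -0.28 to 0.17 in MDA-MB-231 and from -0.17 to 0.44 in MCF10A.

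As a group, the genes measured on both arrays of a line leaned downward after FOXF2 siRNA. In MDA-MB-231, 18 of 27 had a negative log2 difference with a median of -0.18, beside a median of 0.00 over 11398 genes of the table and 49.9% negative. In MCF10A, 18 of 28 were negative with a median of -0.20, beside -0.01 over 11316 genes and 50.7% negative. Of 26 genes above background on all 4 arrays, 13 were lower with FOXF2 siRNA in both lines, 6 were higher in both and 7 went opposite ways. Over all 9962 such genes, 27.1% were lower in both lines and 25.9% higher in both. These lines had controls of their own, so the 2 comparisons share no array. For scale, the robust SD of log2 differences over all genes was 0.43 in MDA-MB-231 and 0.42 in MCF10A for dim genes (mean log2 intensity from 6 to 8), and 0.30 in MDA-MB-231 and 0.25 in MCF10A for bright ones (10 to 16), so most of the differences above lie within the spread of the whole table.

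**Figure D5:**
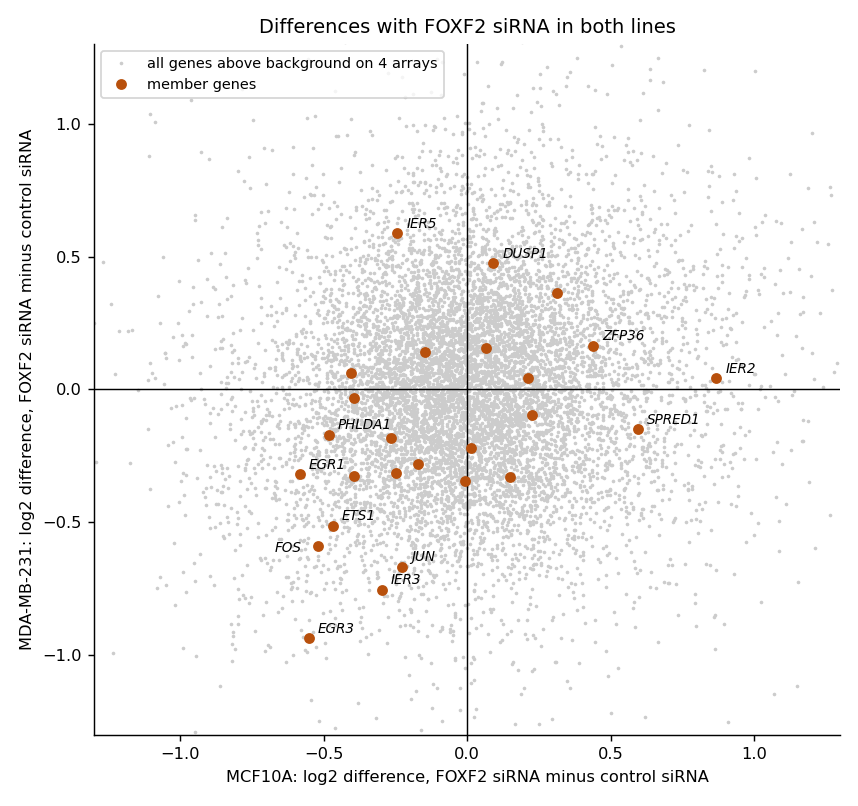
Log2 difference of FOXF2 siRNA minus control siRNA in MDA-MB-231 (vertical) against MCF10A (horizontal), with the 26 listed genes above background on all 4 arrays in orange, on top of all 9962 such genes in grey, 83 of which lie outside the axes. Points to the lower left of the origin, such as EGR3, FOS, ETS1, IER3 and JUN, were lower in both lines.

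With the 4 arrays in 1 limma model, none of the 31 genes tested changed with FOXF2 siRNA averaged over the lines, where 45 of 20747 genes, 0.217%, did so. The lowest adjusted p was 0.373, for IER3 (log2 -0.53, SE 0.18, lower in 2 of 2 lines). At an unadjusted p under 0.05 there were 5 of the 31 genes, beside 5.45% of all genes, all 5 with negative differences: IER3, ETS1 (-0.49), JUN (-0.45), EGR1 (-0.45) and EGR3 (-0.74). No gene of the list passed with limma's prior variance independent of brightness (1 at an unadjusted p under 0.05) or with each gene's own spread (3 at an unadjusted p under 0.05). Other signals moved with the siRNA too: the summed interferon-induced genes were 3364 with FOXF2 siRNA against 3007 with control siRNA in MDA-MB-231, and 1294 against 1085 in MCF10A. The 4 fibroblast markers summed to 1219 against 676.4 in MCF10A, where the proteoglycan gene DCN measured 852.5 against 333.4. In MDA-MB-231 they summed to 459.4 against 389.7, largely background. There 1 of the 4 was above background with FOXF2 siRNA and 0 with control siRNA. The part of these marker genes in the siRNA differences was not tested.

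The promoters of 23 of the 32 genes had 1 or more windows in RefSeq (build GRCh38.p14), each from 250 bases before to 50 after a gene start, 32 windows in all. They were searched on both strands for the letters that the pathway's own factors bind, and for a forkhead element. A listed gene counted with a match in any of its windows, while the shares over all windows count each window singly. The gene counts and these shares are therefore not like for like. The CArG box, which serum response factor binds, was present in windows of 2 of the 23 genes, EGR1 and EGR2, and in 1.29% of all 35093 windows. The cyclic AMP response element TGACGTCA, bound by CREB and by JUN with ATF proteins, was in those of DUSP1, JUND, MAFF and ZFP36L1, against 1.85% of all windows. The AP-1 element TGAGTCA was found, on the opposite strand, in that of FOSL2 (4.95% of all windows), and the EGR element GCGTGGGCG or GCGGGGGCG in those of DUSP2 and SPRY2 (5.76%). The forkhead element TGTTTAC or TGTTTAT was found in that of JUNB (7.43%), and the ETS element CCGGAAGT in none of the 23 (4.14%). No motif overlapped another in the windows shown. A match is a run of letters and not a site known to be bound, and no match says only that the letters are missing from these windows.

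The windows of 5 genes are shown, 5′ to 3′ on the strand of the gene, with the matches in capitals. EGR1 (chr5:138465229-138465528, plus strand) holds 2 CArG boxes that begin 105 and 83 bases before the start. EGR2 (chr10:62816317-62816616, minus strand) holds 1, at 71 bases before the start. They are shown because EGR genes had some of the lowest differences with FOXF2 siRNA. FOSL2 (chr2:28392608-28392907, plus strand) holds an AP-1 element just after its start, and DUSP1 (chr5:172771146-172771445, minus strand) a cyclic AMP response element 125 bases before it. JUNB (chr19:12791236-12791535, plus strand) is shown for the forkhead element 166 bases before its start. JUNB differed by 0.04 in MDA-MB-231 and 0.21 in MCF10A with FOXF2 siRNA, on the log2 scale.
EGR1: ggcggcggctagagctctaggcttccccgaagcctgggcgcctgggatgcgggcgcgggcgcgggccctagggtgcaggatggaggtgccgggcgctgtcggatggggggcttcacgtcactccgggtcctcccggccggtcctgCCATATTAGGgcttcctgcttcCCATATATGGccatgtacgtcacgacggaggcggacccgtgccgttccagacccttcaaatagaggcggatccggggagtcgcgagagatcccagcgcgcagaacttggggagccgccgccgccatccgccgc
EGR2: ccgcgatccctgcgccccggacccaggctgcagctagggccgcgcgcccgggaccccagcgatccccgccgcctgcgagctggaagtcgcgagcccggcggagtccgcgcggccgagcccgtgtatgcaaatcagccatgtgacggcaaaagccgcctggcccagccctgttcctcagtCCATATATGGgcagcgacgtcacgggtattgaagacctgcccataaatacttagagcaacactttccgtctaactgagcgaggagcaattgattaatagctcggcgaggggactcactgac
FOSL2: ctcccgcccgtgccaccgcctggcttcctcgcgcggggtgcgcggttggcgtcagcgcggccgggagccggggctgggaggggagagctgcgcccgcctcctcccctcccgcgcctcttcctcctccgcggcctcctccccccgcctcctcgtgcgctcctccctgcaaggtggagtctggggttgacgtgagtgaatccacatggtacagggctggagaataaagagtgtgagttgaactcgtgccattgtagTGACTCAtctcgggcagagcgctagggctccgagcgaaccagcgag
DUSP1: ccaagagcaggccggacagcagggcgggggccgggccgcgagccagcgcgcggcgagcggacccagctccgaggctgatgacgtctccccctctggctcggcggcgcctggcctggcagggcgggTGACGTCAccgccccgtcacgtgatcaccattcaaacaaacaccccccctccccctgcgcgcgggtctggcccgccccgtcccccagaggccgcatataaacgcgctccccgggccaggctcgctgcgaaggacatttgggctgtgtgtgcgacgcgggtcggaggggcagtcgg
JUNB: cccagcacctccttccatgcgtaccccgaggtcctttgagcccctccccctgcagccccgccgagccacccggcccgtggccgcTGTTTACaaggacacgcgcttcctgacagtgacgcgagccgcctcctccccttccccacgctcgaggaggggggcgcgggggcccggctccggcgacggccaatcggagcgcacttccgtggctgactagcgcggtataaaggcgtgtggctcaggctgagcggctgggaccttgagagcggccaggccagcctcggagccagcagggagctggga

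The wider pathway was read from lists of other genes, beside shares of 5.75% higher and 5.95% lower over all genes. Of 17 kinases and adaptors of the ERK cascade, 1 was higher (NRAS, log2 1.13) and 2 lower in MDA-MB-231, the adaptor SHC1 (-1.38) and the ERK-activated kinase RPS6KA1 (-1.03). Of 14 JNK and p38 cascade genes, only the p38 delta gene MAPK13 was called, at 2039 and 2168.9 in MDA-MB-231 against 415.2 and 436.3 in MCF10A. None of 6 genes for serum response factor and its cofactors was called. Of 14 other feedback genes, 3 were higher in MDA-MB-231, SPRY1, ERRFI1 (log2 1.79), an inhibitor of the EGF receptor, and SPRED2 (1.40), and 1 lower, DUSP7 (-1.48). Of 19 other early genes, 9 were higher in MDA-MB-231 and 3 lower. The matricellular genes CYR61 (log2 3.95) and CTGF (3.04) were higher, and the transcription factor gene CEBPD (-3.53) was lower. The antiproliferative gene BTG2 measured 99.4 and 107.5 in MDA-MB-231, at background, against 309.3 and 317.8 in MCF10A. Of 15 other bZIP genes, 2 were higher in MDA-MB-231, BATF3 (log2 2.73) and CREM, which was at background in MCF10A, and 2 lower, among them ATF2 (-1.10). Of 11 other ETS genes 1 was called, SPDEF, which was higher in MDA-MB-231 and at background in MCF10A.

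Downstream, 8 of 16 known AP-1 targets were higher in MDA-MB-231 and 3 lower, beside the same shares of 5.75% and 5.95% over all genes. The urokinase gene PLAU (log2 3.40), the urokinase receptor gene PLAUR (2.40) and the receptor kinase gene AXL (2.29) were higher. The cytokine gene IL11 measured 518.0 and 910.7 in MDA-MB-231 against 118.7 and 120.5 in MCF10A, where it was at background. Among 11 ERK output genes, 4 were higher, PHLDA2 (2.26), EPHA2 (1.37), HMGA2 (1.02) and CCND1 (1.01), and none was lower. With FOXF2 siRNA, PLAU was the one listed pathway gene that limma called across the lines. It measured 6206.7 with FOXF2 siRNA against 14878.1 with control siRNA in MDA-MB-231, and 856.0 against 1144.7 in MCF10A, and it fell by 0.87 on the log2 scale (adjusted p = 0.00417). Without an intensity trend in limma's prior, or with each gene's own spread, no gene of the table was called for the siRNA. In each line 13 AP-1 targets were measured on both arrays, and 11 of these were shared by the lines. Their log2 differences with FOXF2 siRNA had medians of -0.50 in MDA-MB-231 and -0.18 in MCF10A. They were negative for 9 in MDA-MB-231 and 10 in MCF10A, beside 49.9% and 50.7% of all genes. With bounds counted, 2 of 14 targets were at least 1.5-fold higher and 4 lower in MDA-MB-231, against 7.3% and 7.46% of all genes. In MCF10A, 2 of 15 were higher and 3 lower, against 8.04% and 6.82%. CCND1 and IL8 stood on this list and on that of ERK output genes. The 10 ERK output genes measured in each line had medians of -0.29 in MDA-MB-231 and -0.18 in MCF10A.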

How the data were processed

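RNA from 2 cell lines was measured on Illumina BeadChips, 1 array for each of 4 groups. The deposited values were linear intensity per gene, with array means of 397.5 to 398.7; how the authors normalized them and summarized probes is not given in the sources used here. Another deposited table, by probe, held 8 value columns that could not be matched to samples and were not used. The background of each array was taken from the mode of its dim values, corrected by normexp with an offset of 16, and log2 was taken. Genes in the upper 1% of the background or higher counted as above background. Differences within a line were described at 1.5-fold and 2-fold, those against a value at background being taken to the lowest value above it. limma 3.58.1 in R 4.3.3 fitted cell line and siRNA over 4 arrays, with 1 residual degree of freedom, an intensity trend and Benjamini-Hochberg adjustment over 20747 genes. Calls needed an adjusted p under 0.05 and, between lines, a log2 difference of at least 1. The limma fit was tried on simulated data with the same spread for every gene and large planted differences. That setting is unlike these arrays and does not show how far the calls hold. The number of arrays limits the precision. The p-values rest on the spread of genes of similar brightness on these arrays and do not measure how far cultures vary. Genes past 1.5-fold in a line, genes called between lines and the FOS and JUN families are given on every array, and from each of 9 pathway lists up to 4 genes with the largest differences are named; some of these are not reported here. The genes and lists were chosen with earlier results of these data known. Other background corrections, scalings, filters, priors and left-out arrays were tried. With an array left out, cell line was the only term of the fit.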

Additional observations from a re-analysis of the deposited data

Results flagged for a closer look

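IER5 and SPRED1 passed 1.5-fold with FOXF2 siRNA in one line and differed in the opposite direction in the other. IER5 had a log2 difference, FOXF2 siRNA minus control siRNA, of 0.59 in MDA-MB-231 and -0.24 in MCF10A. SPRED1 had one of -0.15 in MDA-MB-231 and 0.59 in MCF10A. Both lay only just past the threshold. Without background correction IER5 in MDA-MB-231 (0.47) and SPRED1 in MCF10A (0.56) were under 1.5-fold. With an offset of 50 they were also under it, at 0.54 and 0.58. With 1 array per group, the difference between the lines was not tested.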

How the results depend on the processing

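No called difference between lines, no siRNA difference past 1.5-fold and no group median reversed direction. Changes of sign in smaller differences were not counted. Without background correction, 0 of the listed genes were 1.5-fold higher with FOXF2 siRNA in MDA-MB-231, 2 were lower, and 0 were higher in MCF10A; with an offset of 50 these counts were 0, 3 and 1. In MCF10A, 1 gene was 1.5-fold lower under quantile normalization, and 1 with no filter on dim genes. With each gene's own spread, 0 were higher and 0 lower in MDA-MB-231 than in MCF10A. Leaving out 1 array at a time gave 5 to 7 genes higher and 8 to 9 lower. FOSL2 and DUSP2 lost the call whichever array was left out (adjusted p of 0.0501 to 0.426 and 0.0649 to 0.196). DUSP4 lost it without the MDA-MB-231 control array (adjusted p = 0.0746), as did IER5 (adjusted p = 0.0501). DUSP6 lost it without either MDA-MB-231 array (adjusted p of 0.06 and 0.0611) and without the MCF10A FOXF2 siRNA array (log2 0.96). ZFP36L1 lost it without the MDA-MB-231 FOXF2 siRNA array (log2 -0.94) and without the MCF10A control array (-0.99). Over all genes, 1193 were higher and 1235 lower in MDA-MB-231, against 568 and 658 without background correction, 798 and 878 with an offset of 50, 532 and 678 without the MDA-MB-231 control array, and 527 and 685 without the MDA-MB-231 FOXF2 siRNA array. All-gene calls for FOXF2 siRNA numbered 45, against 0 without an intensity trend. The causes were not tested. Values near background limit the sizes given for dim genes: for FOS the log2 difference between lines was -1.52 without correction.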
